A study of Mus musculus with 20 samples.

Results

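Levels of 9 B cell genes were read in macrophage libraries of male mice, sorted by flow cytometry on F4/80 and CD11b, a macrophage protein and an integrin chain that many myeloid cells carry. The genes were Cd79a, Cd79b, Ms4a1, Blk, Cd22, Fcer2a, Cr2, Pax5 and Ly6d, taken by symbol from the deposited tables, which held 14191 gene symbols between them. Visceral adipose tissue (VAT) gave 3 libraries of wild-type mice aged 3 months, 4 of wild-type mice aged 24 months and 4 of Nlrp3-/- mice aged 24 months. From spleen came 2 libraries of 3-month wild-type, 4 of 24-month wild-type and 3 of 24-month Nlrp3-/- mice. Nlrp3 encodes the sensor of an inflammasome, a protein complex that activates caspase-1, and the null mice carried no other allele named in the labels. No 3-month null group was analysed here, so age and genotype were compared in separate contrasts. All 9 genes stood in the table of the 13 wild-type libraries and in the table of the 9 spleen libraries. Only 7 stood in the table of the 11 VAT libraries, from which Cr2 and Pax5 were missing, so these 2 have no null VAT values here.

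B cells carry an antigen receptor made of an immunoglobulin and a signalling pair, CD79A and CD79B, whose tails are phosphorylated by Src family kinases such as BLK. CD22 damps that signal, CD21 (Cr2) raises it, and PAX5 is the transcription factor that holds cells in the B lineage until they become plasma cells. Spleen is a B cell organ with follicular and marginal zone B cells, and adipose tissue holds smaller B cell populations. A macrophage is not known to build the B cell receptor, of which Cd79a and Cd79b encode parts. The genes are used together as markers of B cells, and how far each is restricted to them was not tested. In sorted bulk samples more B cells and more RNA per B cell cannot be told apart, and neither can B cells caught in the gate and B cell RNA carried by other cells.

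The genes lie on 8 chromosomes of the mm10 genome (GRCm38, GENCODE M21 annotation). Cd79a lies at chr7:24897381-24902197 on the plus strand, and Cd79b at chr11:106311341-106314762 on the minus strand. The other 7 also lie on the minus strand. Ms4a1 is at chr19:11249675-11266241, Blk at chr14:63372836-63417037, Cd22 at chr7:30865402-30880342 and Fcer2a at chr8:3681737-3694175. Cr2 is at chr1:195136811-195176716, Pax5 at chr4:44524757-44710487 and Ly6d at chr15:74762056-74763620. Cd22 and Ms4a1 each overlap 1 antisense gene and Pax5 overlaps 3 genes of the opposite strand and 1 microRNA gene. The libraries were strand-specific, but whether strand was used in counting is not given in the sources used here, so reads of those overlapping genes cannot be told apart.

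Cd79a, which rose with age in VAT, and Fcer2a, for which no change was called there, are shown by the sequence just upstream of their starts, because their contrast recurs in the results. RefSeq promoter windows (GRCm38.p6) were found for 5 of the 9 members, and only the part upstream of every annotated start of the gene was kept. The windows are printed 5′ to 3′ on the gene's strand, with motif matches in capitals. The motifs searched on both strands were the octamer ATGCAAAT, the EBF1 core CCCNNGGG, the EBF1 recognition letters AAGGGAAT and the TATA box TATAAA, and AAGGGAAT was chosen after the sequence was seen.
Cd79a (chr7:24897247-24897380, plus strand): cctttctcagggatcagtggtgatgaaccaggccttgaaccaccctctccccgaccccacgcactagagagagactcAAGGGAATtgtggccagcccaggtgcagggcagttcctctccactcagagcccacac
Fcer2a (chr8:3694176-3694424, minus strand): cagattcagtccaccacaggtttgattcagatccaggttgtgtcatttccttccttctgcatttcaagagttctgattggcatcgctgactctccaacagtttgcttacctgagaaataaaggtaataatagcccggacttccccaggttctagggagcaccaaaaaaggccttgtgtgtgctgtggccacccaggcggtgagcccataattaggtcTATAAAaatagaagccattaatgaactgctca
The Cd79a stretch of 134 bases held 1 match to AAGGGAAT, which is present in 0.594% of the 32851 RefSeq windows cut at the same distance. The Fcer2a stretch of 249 bases held 1 match to TATAAA, present in 12.4% of windows cut likewise. No other listed motif was found in either stretch, and a match describes letters only, not a site in use.

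Library depth came to 24.1 to 37.5 M recovered reads. Nlrp3 stood at 6.15 to 10.5 normalised counts in 3 null VAT libraries and at 200.4 in null VAT replicate 4, against 2708 to 4254 in 24-month wild-type VAT. In null spleen it stood at 1, 3.61 and 1 against 341 to 663, and no library contradicted its genotype label. Macrophage markers were high in every group, and their summed level over 11 genes was 825349 to 966604 in wild-type VAT and 215914 to 433066 in wild-type spleen. The labels do not say whether replicates were separate animals, so p-values measure the spread between these libraries only. One library stood apart for the members: 24-month wild-type VAT replicate 4 held 9.46 times the median of the other 3 for Cd22, 5.17 times for Blk, 4.80 times for Ms4a1, 3.80 times for Cd79a and 2.86 times for Cd79b.

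In wild-type VAT macrophages the receptor chains, Ms4a1, Blk and Ly6d were higher at 24 than at 3 months, whereas Fcer2a and Cr2 were low at both ages and Pax5 was near the counting floor. Cr2 and Pax5 passed the filter on low values (a table mean of at least 10) only through their spleen libraries, so they are not counted here. In limma, fitted over all genes with Benjamini-Hochberg adjustment, 5 of the other 7 members rose and 0 fell at an adjusted p under 0.05. Of all 13702 genes tested 2.23% rose and 3.17% fell by the same rule. The log2 fold changes of these 7 ran from -0.84 for Fcer2a to 3.35 for Blk, against a median of 0.04 over all genes tested. These values are normalised read counts of the wild-type table, and fold changes are on the log2(value + 1) scale.

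Cd79a, the chain that pairs with Cd79b to signal from the B cell receptor, stood at 107, 107 and 83.5 in the 3-month libraries and at 715.5, 538, 747 and 2719 in the 24-month libraries. The age groups did not overlap, and the highest value was in 24-month replicate 4. Its log2 fold change was 3.24 ± 0.40 (SE), with an adjusted p of 0.000402 in limma and of 1.58e-05 without that replicate, when the fold change was 2.73. The adjusted p ran from 2.03e-07 to 0.00516 over all alternatives. Cd79b, its partner, stood at 502, 373 and 561 at 3 months and at 1112, 801, 1003 and 2868 at 24 months, again without overlap. Its log2 fold change was smaller, 1.42 ± 0.33, with an adjusted p of 0.0218 in limma. At 3 months Cd79b counts were thus 3.49 to 6.72 times those of Cd79a in the same library, whereas at 24 months they were 1.05 to 1.55 times. In wild-type spleen the Cd79b to Cd79a ratio was 0.994 to 1.31.

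Ly6d, a small GPI-anchored surface protein that marks B lineage commitment, showed the steadiest rise. It stood at 96.7, 83.8 and 30.8 at 3 months and at 406, 552, 701 and 868 at 24 months, and replicate 4 was here only 1.57 times the median of the others. The log2 fold change was 3.25 ± 0.35, with an adjusted p of 0.000159 in limma, and it was called under every alternative run. Cd79a shared that property.

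Ms4a1 encodes CD20, a surface protein of mature B cells. It stood at 83.8, 79.9 and 134 at 3 months and at 331, 299, 245 and 1434 at 24 months, with a log2 fold change of 2.15 ± 0.45 (adjusted p = 0.0121, limma). Blk, the Src family kinase of B cells, stood at 12.9, 4.82 and 1 at 3 months, which is 0 to 12 reads. At 24 months it stood at 95.6, 36.7, 12.6 and 190.0, so 1 old library lay just below the highest young one, and the log2 fold change was 3.35 ± 0.77 (adjusted p = 0.0195, limma). The Ms4a1 groups did not overlap and the Blk groups did.

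These 3 calls were lost when single 3-month libraries were left out. Cd79b missed the threshold without 3-month replicate 1, 2 or 3 (limma adjusted p = 0.0616, 0.0977 and 0.0665), Ms4a1 without replicate 1 or 2 (0.0523 and 0.0557) and Blk without replicate 2 or 3 (0.0587 and 0.127). Over all alternatives the adjusted p ran from 0.012 to 0.0977 for Cd79b, from 0.000777 to 0.0557 for Ms4a1 and from 0.00185 to 0.127 for Blk. The number of members called was 3, 2 and 3 without 3-month replicates 1, 2 and 3, and 5 without each of the 24-month replicates in turn, replicate 4 included. Calls over all genes fell as well, from 306 higher and 434 lower with all libraries. They were 170 and 247 without 3-month replicate 1, 171 and 217 without replicate 2 and 76 and 140 without replicate 3. Without single 24-month replicates they were 145 to 309 higher and 319 to 485 lower. Without 3-month replicate 3 the log2 fold change of Blk was 2.63.

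Among the co-receptors Cd22, a sialic-acid binding inhibitor of receptor signalling, stood at 122.5, 61.6 and 27.0 at 3 months and at 173, 187, 134 and 1636 at 24 months. Its groups did not overlap, yet its log2 fold change of 2.28 ± 0.69 missed the threshold (adjusted p = 0.0679, limma), and it was 1.45 without replicate 4. DESeq2 on the recovered reads called it (log2 2.92, adjusted p = 0.0149), and the range over alternatives was 0.0149 to 0.32. Every 24-month library thus lay above every 3-month library for 5 members, Cd79a, Cd79b, Ms4a1, Cd22 and Ly6d. Of all genes tested 12.2% showed such a separation in that direction.

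Fcer2a encodes CD23, the low-affinity IgE receptor of follicular B cells, and it did not share the pattern. It stood at 82.7, 15.4 and 29.5 at 3 months and at 13.7, 12.2, 47.4 and 14.2 at 24 months, with overlapping groups and a log2 fold change of -0.84 (95% interval -2.01 to 0.33, adjusted p = 0.422, limma). In replicate 4, where the other receptor genes peaked, Fcer2a was 1.04 times the median of the others. Cr2, the complement receptor CD21 of mature follicular and marginal zone B cells, stood at 24.7, 1.93 and 1 at 3 months and at 1.14, 1, 13.7 and 1 at 24 months. Its highest libraries, 3-month replicate 1 and 24-month replicate 3, were also the highest for Fcer2a at each age. Pax5 stood at 1, the lowest value of the tables, in all 3 young libraries and in 3 of the 4 old ones. That lowest value stands for 0 reads, or for 0 or 1 read where a read is worth less than 1. In 24-month replicate 4 Pax5 had 4 reads (3.80 normalised counts), so no fold is given for this gene in VAT.

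**Figure D1:**
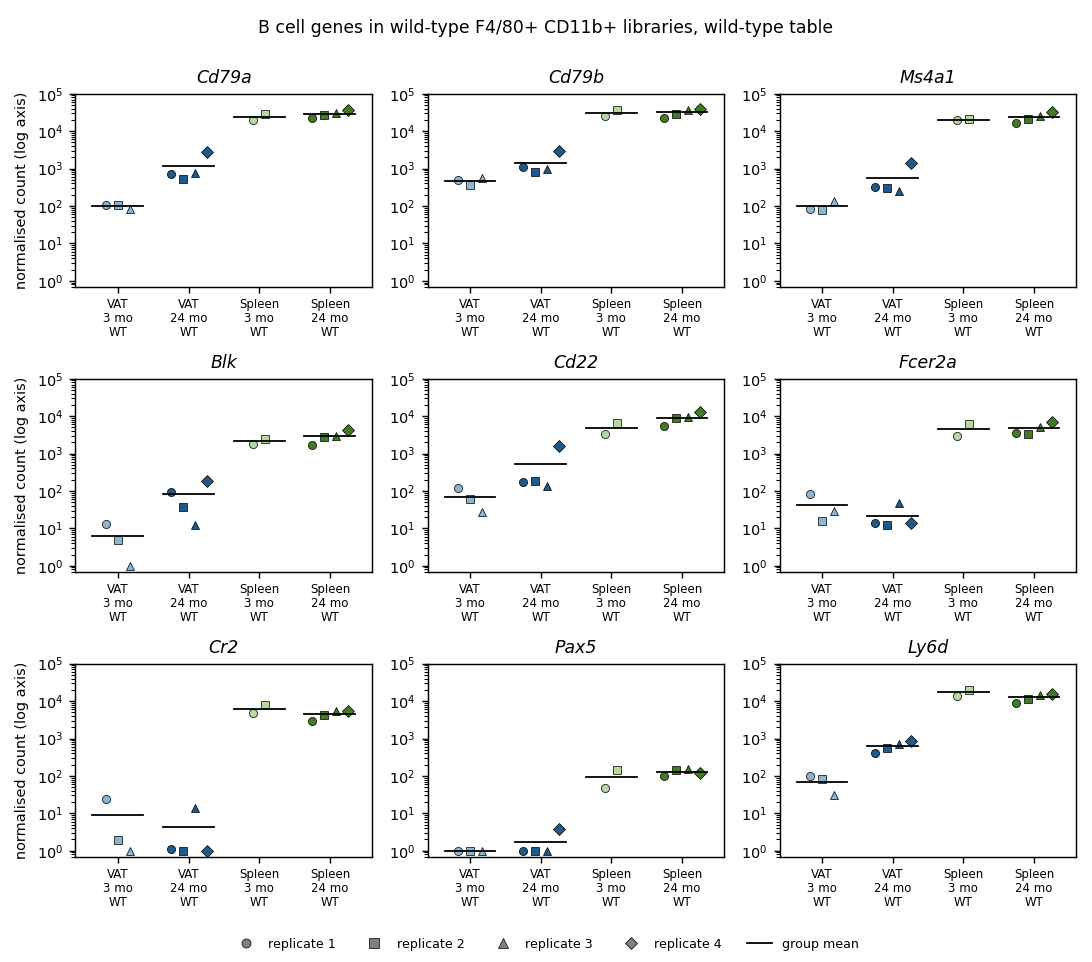
Normalised read count (log axis) of each B cell gene in every wild-type library, by tissue and age. Points are libraries, marker shapes are replicate numbers and lines are arithmetic group means. Spleen lies above VAT in the panels other than Cr2 and Pax5, whose higher level in spleen was fixed by the filter on low values. In VAT Cd79a rises from 83.5 to 107 at 3 months to 538 to 2719 at 24 months, while Fcer2a is at 12.2 to 82.7 over both ages.

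With age in wild-type spleen no member was called: 0 of 9 rose and 0 of 9 fell in limma with adjusted p over all genes, against 2.8% of genes that rose and 3.4% that fell. At an unadjusted p under 0.05 there were 0 of 9, against 22% of all genes, and edgeR and DESeq2 on the recovered reads called 0 members as well. Cd79a stood at 19352 and 29528 at 3 months and at 22517, 26778, 31039 and 36259.5 at 24 months, so the groups overlapped. Its log2 fold change was 0.26 (95% interval -0.69 to 1.22). Cd22 had the largest estimate, 0.91 (-0.76 to 2.57), from 3431 and 6374 at 3 months to 5546, 8828, 9418 and 12768 at 24 months. Ly6d went the other way, at 13923 and 20306 against 9069.5, 11491, 14552.5 and 15833 (-0.43, interval -1.27 to 0.40). With 2 young libraries these intervals leave changes of this size undetectable, and the sign of Cd79a, Cd79b, Fcer2a and Pax5 turned when spleen 3-month replicate 1 was left out, and for Cd79b and Fcer2a also without 24-month replicate 3 or 4.

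The difference between the age effects of the tissues was tested as an interaction. It was called for Ly6d (log2 -3.68 ± 0.52, adjusted p = 0.00274, limma) and Cd79a (-2.98 ± 0.60, adjusted p = 0.0186), both lower in spleen relative to VAT. Thus, with Cr2 and Pax5 left out as before, 2 of 7 members were called on that side, where 1.36% of all genes were. Ly6d stayed called under every alternative, whereas Cd79a missed the threshold without VAT 3-month replicate 3 (adjusted p = 0.0589, range over alternatives 0.00133 to 0.0589). Ms4a1 had an estimate of -1.98 that was not called (adjusted p = 0.15), but was called without VAT 24-month replicate 4 (-1.40, adjusted p = 0.0469, range 0.0378 to 0.3). For Cd79b (-1.38), Blk (-2.96) and Cd22 (-1.37) the test missed the threshold, and for Fcer2a it gave 0.89 (interval -0.88 to 2.66).

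The tissues were compared next. All 9 members passed the filter on low values, but Cr2 and Pax5 did so only through their spleen libraries. Their higher level in spleen was thus fixed by the filter, and they are not counted here. Every other member was called higher in spleen than in VAT at 3 months and at 24 months in limma. Among all genes 18.7% were higher in spleen at 3 months and 22.5% at 24 months. No spleen library overlapped a VAT library for any of these other members. Of all 13702 genes tested, 4027 at 3 months and 2712 at 24 months had every spleen library above every VAT library. The fold of means was 246 for Cd79a, 205 for Ms4a1, 243 for Ly6d and 64.1 for Cd79b at 3 months. At 24 months it was 24.7, 41.0, 20.2 and 21.9 in the same order. Without 24-month VAT replicate 4 the 24-month fold was 43.7 for Cd79a and 81.1 for Ms4a1. Behind these folds Cd79b stood at 25270.2 and 36105 in 3-month spleen and at 22377, 29151, 37231 and 38004 in 24-month spleen. Ms4a1 stood at 19494 and 21130.4, then at 16084, 20790.5, 25922 and 31893. Neither gene separated the spleen age groups. For Fcer2a the fold of means was 108 at 3 months and 214 at 24 months, and single libraries set it. It was 204 at 3 months without VAT replicate 1 and 71.1 without spleen replicate 2, and 349.7 at 24 months without VAT replicate 3. Its spleen values were 3027 and 6135 at 3 months and 3478, 3353, 5098 and 6789.8 at 24 months.

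Cr2 stood at 4696 and 7651 in 3-month spleen and at 2857, 4181, 5536 and 5408 in 24-month spleen. In VAT 5 of the 7 libraries held 0 to 2 reads of it and 1 library at each age set the mean, so no fold is given. Pax5 stood at 47.8 and 144 in 3-month spleen and at 101, 142, 157 and 121 in 24-month spleen. Because Pax5 stood at the lowest value in every 3-month VAT library, its mean in 3-month spleen was at least 28.8-fold higher, taken against the mean of the 3-read floors of those libraries. Blk stood at 1785 and 2512, then at 1654, 2773, 2919 and 4388, in spleen at the same ages.

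Divided by the length of the gene's exons, the members kept a similar order in both tissues. In 24-month wild-type spleen Cd79b had 22146 ± 5163 (SD, n = 4) normalised counts per kilobase, Cd79a 20006 ± 4036 and Ly6d 17119 ± 4098. Their ranges overlapped. Ms4a1 came next at 3826 ± 1098, then Cd22 (1813 ± 587), Fcer2a (1514 ± 522) and Blk (1087 ± 416), whose ranges overlapped from one to the next. Cr2 followed at 554 ± 154 and Pax5 at 14.7 ± 2.79, both below the ranges of the genes before them except that Cr2 reached 683 and Blk began at 613. In 24-month wild-type VAT the same 3 genes led, Cd79b at 1010.5 ± 668, Ly6d at 849 ± 266 and Cd79a at 810 ± 707. Fcer2a fell behind Blk there, at 7.07 ± 5.50 against 31.0 ± 29.3, although their ranges overlapped (3.96 to 15.3 against 4.68 to 70.4).

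Set beside the sorting markers on the same per-kilobase scale, the tissues differed. In 24-month wild-type spleen Cd79a, at 15455 to 24886, lay above Adgre1, which encodes F4/80, at 2432 to 2730.2, and above Itgam, which encodes CD11b, at 726 to 1076. In 24-month wild-type VAT Cd79a, at 369 to 1866, lay below Adgre1 at 7443 to 14041, and its range met that of Itgam at 1508 to 2290.1. The label "macrophages" thus went with B cell receptor transcripts above both sorting markers in every spleen library of that group.

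Loss of Nlrp3 was compared with wild type at 24 months. In VAT the null libraries held more of all 7 measured B cell genes on average, but none of the 7 was called in limma. The estimates ran from 0.64 for Cd22 to 1.77 for Ly6d, with a median of 1.31 against 0.01 over all genes. At an unadjusted p under 0.05 there were 3 of 7, Ly6d, Ms4a1 and Cd79a, against 6.09% of all genes. By adjusted p 0.00764% of all 13090 genes were called in either direction, which is 1 gene. edgeR on the recovered reads called 0 members and DESeq2 called 1, Ly6d.

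Ly6d stood at 381, 511, 652 and 819 in wild-type and at 1455, 3374, 1094 and 2627 in null libraries of the VAT table. Every null library lay above every wild-type library, and Ly6d was the only member of the 7 for which this held, against 1.73% of all genes. Its log2 fold change was 1.77 (95% interval 0.92 to 2.62), with an unadjusted p of 0.000503 and an adjusted p of 0.452 in limma. By DESeq2 the adjusted p was 0.000737, and without wild-type replicate 4 it was 0.191 in limma, in a range of 0.000737 to 0.915 over all alternatives. The interval of the difference thus excluded 0 before adjustment, while the call depended on the tool.

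Ms4a1 stood at 311, 277, 228 and 1354 in wild-type and at 578, 2891, 1303 and 1437 in null libraries. Wild-type replicate 4 lay among the null values and the other 3 wild-type libraries below all of them. The log2 fold change was 1.72 (0.59 to 2.84, adjusted p = 0.648, limma), and it was 2.30 without wild-type replicate 4 (adjusted p = 0.191, range 0.191 to 0.933). Cd79a showed the same arrangement, at 671, 498, 695 and 2567 against 1011, 3128, 1868 and 2164, with a log2 fold change of 1.10 (0.19 to 2.02, adjusted p = 0.775). Cd79b stood at 1044, 742, 933 and 2706 against 1061, 2534, 2105 and 2262 (0.68, interval -0.08 to 1.43).

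The other 3 genes overlapped more. Blk stood at 89.7, 34.0, 11.8 and 179 in wild-type and at 84.0, 226, 99.3 and 141 in null libraries (1.31, interval -0.40 to 3.02). Cd22 stood at 162, 173, 124 and 1544 against 125, 399.5, 952 and 681 (0.64, interval -0.996 to 2.28). Fcer2a stood at 12.8, 11.3, 44.1 and 13.5 against 49.0, 21.0, 181 and 24.1 (1.38, interval -0.28 to 3.03). Its highest null library, replicate 3, was also the highest null library for Cd22, but not for any receptor chain. Without wild-type replicate 4 the estimate was 1.48 for Cd22 and 1.07 for Cd79b. The intervals of Blk, Cd22 and Fcer2a include both no difference and a several-fold one.

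**Figure D2:**
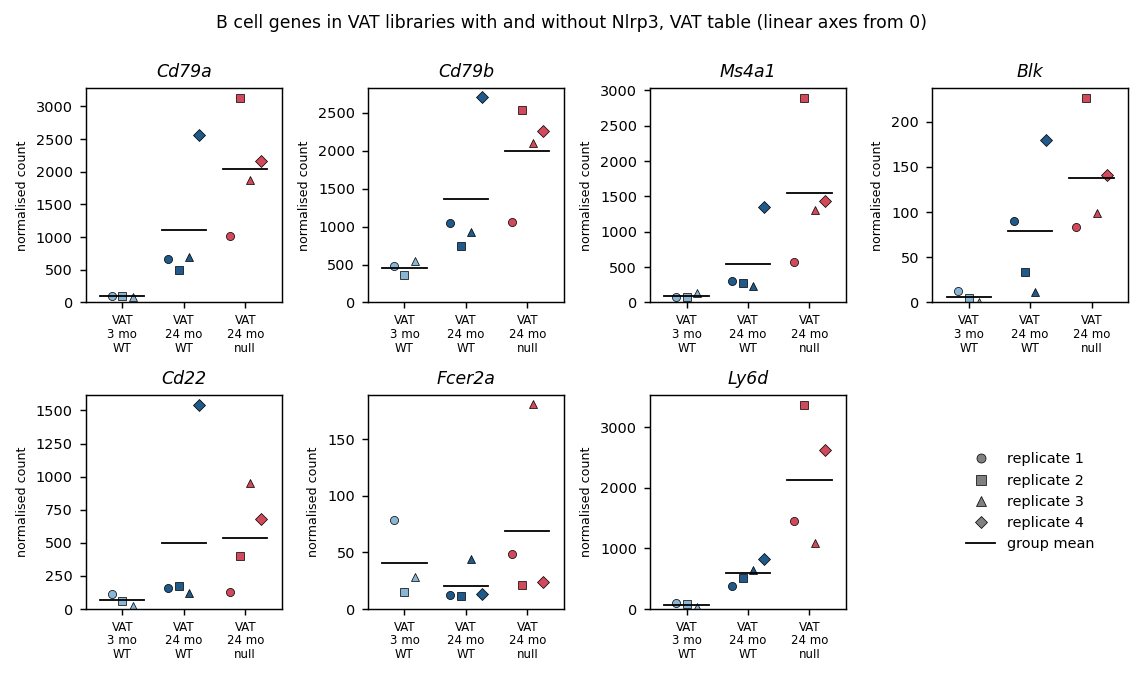
Normalised read count (linear axes from 0, VAT table) of the 7 measured B cell genes in each VAT library, by age and genotype. Points are libraries, marker shapes are replicate numbers and lines are arithmetic group means. For Ly6d every null library (1094 to 3374) lies above every 24-month wild-type library (381 to 819), and for the other 6 genes wild-type replicate 4 or another library overlaps the null range.

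Against 3-month wild-type VAT, a comparison added after these values had been seen, the 24-month null libraries were higher for 5 of 7 members in limma. Of all 13090 genes 2.68% rose and 2.56% fell in that contrast. It confounds age with genotype and shares its 3-month libraries with the age comparison, so the values stand side by side only. Ly6d had a log2 fold change of 4.98 ± 0.43 (adjusted p = 4.48e-05), Cd79a 4.31 ± 0.46 (0.000184), Ms4a1 3.83 ± 0.57 (0.00189), Blk 4.60 ± 0.86 (0.00759) and Cd79b 2.06 ± 0.38 (0.00714). For 6 of 7 members, all but Fcer2a, the groups did not overlap, as for 9.75% of all genes in that direction. Cd22 was at 2.88 (adjusted p = 0.0592) and was called without null replicate 1 (adjusted p = 0.0206, range 0.0206 to 0.281), while Blk was not called without 3-month replicate 3 (adjusted p = 0.0577, range 1.49e-05 to 0.0577). Fcer2a was at 0.51 (interval -1.28 to 2.29).

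In 24-month spleen none of the 9 members was called between genotypes in limma, and 0.00766% of all 13053 genes were, which is 1 gene. At an unadjusted p under 0.05 there were 0 of 9, against 6.19% of all genes, and edgeR and DESeq2 called 0 members. Cd79a stood at 24487, 29259.8, 33751 and 39542 in wild-type and at 20866, 22756 and 34415 in null libraries of the spleen table. The estimates ran from -0.51 for Cd22 (interval -1.08 to 0.07) to 0.15 for Ly6d (-0.29 to 0.59), with a median of -0.21. Macrophage markers summed to 366669 to 424525 in null and to 235462 to 318359 in wild-type spleen, without overlap. The neutrophil sum was 372902 to 1085160 in null and 193130 to 399484 in wild-type spleen, and all 10 neutrophil markers had positive estimates with a median of 0.98, although 0 of 10 were called. Their part in the members' values was not tested. Null replicate 3 was the highest null library for all 9 genes. Its values were 29753 for Ms4a1, 4143 for Blk, 5490.4 for Fcer2a, 4714 for Cr2, 168 for Pax5 and 19597.5 for Ly6d.

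Between the tissues, the genotype effect of all 7 members measured in both was lower in spleen than in VAT, but none was called in limma and 0% of all 12156 genes were. At an unadjusted p under 0.05 there were 3 of 7, against 8.09% of all genes, with Ly6d at -1.60 (interval -2.67 to -0.53, adjusted p = 0.426), Ms4a1 at -1.91 (-3.30 to -0.52, adjusted p = 0.433) and Cd79a at -1.39 (-2.54 to -0.24, adjusted p = 0.511). edgeR called 0 members and DESeq2 called 1, Ly6d (log2 -1.69, adjusted p = 0.0473, range over alternatives 0.0473 to 0.634). This contrast was fitted on both tables joined on their recovered reads.

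**Figure D3:**
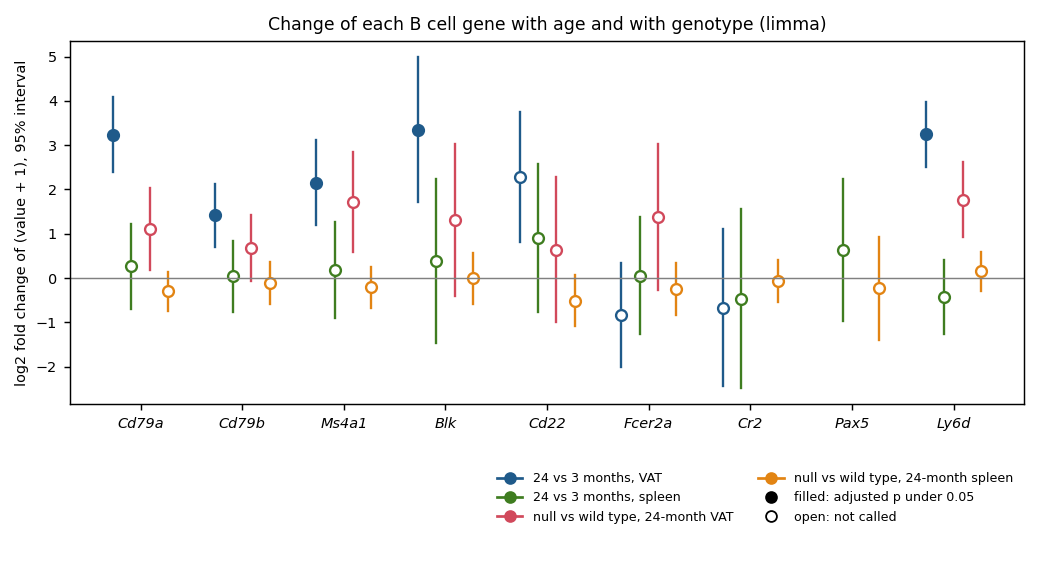
Log2 fold change of (value + 1) of each B cell gene in 4 comparisons, with 95% intervals from limma. Filled points have an adjusted p under 0.05. Only the age comparison in VAT has filled points, for Cd79a, Cd79b, Ms4a1, Blk and Ly6d. Pax5 in VAT is not drawn, being near the counting floor, and Cr2 and Pax5 have no value for genotype in VAT.

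Ratios within a library compare the members with each other. They are free of how much B cell RNA the library held only if all reads of both genes come from B cells. That was not tested, and the Cd79b to Cd79a ratio was 3.49 to 6.72 in 3-month and 1.05 to 1.55 in 24-month wild-type VAT. The ratio tests were added after the values had been seen and numbered 12 in 1 family. They could not go below an exact permutation p of 0.0286 with 4 libraries a side. The Fcer2a to Cd79a ratio was 0.154, 0.125, 0.164 and 0.187 in 24-month wild-type spleen and 0.0191, 0.0228, 0.0634 and 0.00524 in 24-month wild-type VAT. The groups did not overlap, and the geometric means were 0.156 and 0.0195 (exact permutation p = 0.0286, two-sided, adjusted 0.114). These VAT ratios came from 12, 12, 45 and 15 reads of Fcer2a. In 3-month VAT the ratio was 0.770, 0.144 and 0.354, within or above the 24-month spleen range, from 77, 16 and 23 reads of Fcer2a. In 3-month wild-type spleen it was 0.156 and 0.208, so 0.144 lay below both and the other VAT values above both. Null VAT libraries, at 0.0485, 0.00672, 0.0969 and 0.0111, overlapped the 24-month wild-type VAT range.

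The Ms4a1 to Cd79a ratio also separated groups at 24 months. It was 0.714 to 0.880 in 24-month wild-type spleen and 0.328 to 0.556 in 24-month wild-type VAT (exact permutation p = 0.0286, adjusted 0.114). The 3-month VAT ratios were 0.780, 0.748 and 1.60, within or above that 24-month spleen range. In 3-month wild-type spleen the ratio was 1.01 and 0.716, so 0.780 and 0.748 lay between these and 1.60 above both. In null VAT it was 0.572, 0.924, 0.698 and 0.664, above every wild-type VAT library of that age (exact permutation p = 0.0286, adjusted 0.114). With Cd79b as the divisor, the tissue difference of the Fcer2a ratio and both differences of the Ms4a1 ratio again gave the smallest possible p. For Cd22, Blk and Ly6d the exact permutation p was 0.171 or higher in all 6 tests with Cd79a as the divisor.

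**Figure D4:**
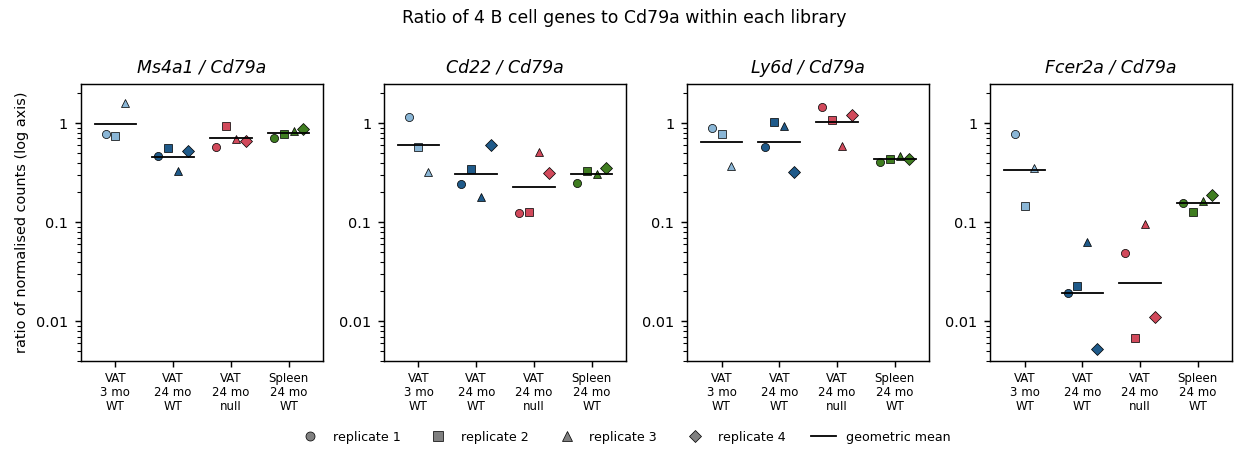
Ratio of the normalised counts of 4 B cell genes to Cd79a in each library (log axis). Points are libraries, marker shapes are replicate numbers and lines are geometric means of the group. The Fcer2a ratio is 0.125 to 0.187 in 24-month wild-type spleen and 0.00524 to 0.0634 in 24-month wild-type VAT, and the Ms4a1 ratio is higher in null (0.572 to 0.924) than in wild-type 24-month VAT (0.328 to 0.556).

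Across the 11 VAT libraries the members moved together except for Fcer2a. Pearson correlations of log2 values between the other 6 measured members were 0.752 to 0.972 over 15 pairs, with a median of 0.886. For the 6 pairs with Fcer2a they were -0.0432 to 0.0995. In the 9 spleen libraries Fcer2a correlated with the other 8 members at 0.591 to 0.909. The VAT correlations mix 3 groups that differ in level, and the points share their library depth. Both are descriptions with no test.

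The genes most like the members' mean z-score over the 11 VAT libraries, members aside, were Eda (r = 0.959), Acp5 (0.949), Dynlt1b (0.946), Terf2ip (0.945), Dusp4 (0.943), Dph1 (0.941), Mif4gd (0.94) and Dnaja3 (0.936). These r values also mix groups that differ in level. With the group means removed, r was 0.758, 0.830, 0.670, 0.739, 0.696, 0.879, 0.946 and 0.772 in the same order. Eda, a TNF family ligand, stood at 1 to 6.14 at 3 months, 6.40 to 39.4 in 24-month wild-type and 49.0 to 74.6 in null libraries. Acp5, the tartrate-resistant acid phosphatase of osteoclasts and macrophages, stood at 942 to 1037, 1448 to 7346 and 2920.4 to 6122. Among the members Fcer2a had an r of 0.206 over the 11 libraries, group means not removed, at rank 4822.

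Lists of further B cell genes were counted beside the members, and the genes named as called in them were chosen after their values were seen. In the list of the receptor complex and B cell restricted signalling no gene fell with age in VAT. Faim3, an IgM receptor, stood at 1.07, 21.2 and 25.7 at 3 months and at 137, 155, 115 and 795.02 at 24 months (log2 4.30, adjusted p = 0.00462, limma). In null VAT Faim3 stood at 219, 162, 322 and 163. Faim3 was called without each of the 7 libraries in turn. Fcrla, an Fc receptor-like protein of B cells (2.19, adjusted p = 0.0395), was called in 3 of those 7 fits, and its log2 fold change was 1.31 without 3-month replicate 3. Bank1 and Blnk, a scaffold and an adaptor protein, were at 0.34 and 0.38 and were not called.

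Of 10 B cell transcription factors 2 rose and 0 fell. Pou2af1, the octamer coactivator that works with Oct proteins, stood at 17.2, 62.6 and 16.7 at 3 months and at 60.3, 127, 386 and 384 at 24 months (log2 2.76, adjusted p = 0.0124). Pou2f2, which encodes Oct-2, was at 0.88 (adjusted p = 0.0177). Both missed the threshold without 3-month replicate 3 (adjusted p = 0.0859 and 0.0927), Pou2af1 also without replicate 1 (0.0611) and Pou2f2 without replicate 2 (0.0618). Ebf1, Spib and Ciita, the genes of highest mean count in the list, were at 0.76, 1.40 and -0.33 and were not called. None of these 10 was called between genotypes in VAT.

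Plasma cell genes moved in VAT as well. Jchain, which joins secreted IgM and IgA, stood at 4538, 8722 and 2301 at 3 months and at 23553, 31570.3, 50911 and 29995 at 24 months (log2 2.86, adjusted p = 0.000507). Mzb1, an endoplasmic reticulum chaperone of antibody assembly that also stands in the marginal zone list, was at 2.91 (adjusted p = 0.000834). Both were called without each of the 7 libraries, and Jchain peaked in 24-month replicate 3, not in replicate 4. Irf4, needed for plasma cells and also used by macrophages and dendritic cells, fell (-0.82, adjusted p = 0.0371), so 2 of 8 plasma cell genes rose and 1 of 8 fell. Immunoglobulin genes were not analysed here.

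In the other lists the calls were few and went both ways. Of 12 signalling genes shared with myeloid cells 0 rose and 1 fell, Plcg2 (-0.80). Among 10 surface, survival and homing receptors 0 rose and 2 fell, Cd2 (-2.06) and Cd24a (-1.81), which T cells and early myeloid cells also express. The B-1 and age-associated list and the germinal centre list had 0 of 7 called each, with medians of -0.65 and 0.28. Of the 3 early B cell genes tested 0 rose and 1 fell, Dntt (-4.39). The marginal zone list had 1 of 7 called, Mzb1. When each of the 7 VAT libraries was left out in turn, Cd2 was called in 7 fits, Plcg2 in 6, Cd24a in 5 and Dntt and Irf4 in 2 each. In spleen, age was called for 4 of 8 plasma cell genes, Xbp1, Sdc1, Tnfrsf17 and Derl3, all higher, and for at most 1 gene of each B cell list.

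Markers of other cell types were summed beside the members. Over the 9 members the sum was 728 to 1034 in 3-month and 2428 to 9734 in 24-month wild-type VAT, and 91027 to 129885 and 83683 to 151465 in wild-type spleen. In VAT the sum of the 10 NK cell markers lay between 2735 and 3323 in young and between 1063 and 1477 in old libraries, with 2 lower (Klrk1 and Klrd1) and Ncr1 at the lowest value in every old library. The T cell sum lay between 1663 and 2518 in young and between 1875 and 2495 in old libraries, with 1 of 14 lower (Cd4). Cd4 and Cd68 were each called in 2 of the 7 fits that left out 1 library. Macrophage markers had 1 of 11 higher (Cd68) and plasmacytoid dendritic cell markers had 0 of 7 called. Of 7 conventional dendritic cell markers 0 rose and 1 fell, Flt3, which was called in 2 of those 7 fits, and the median was -0.68. The follicular dendritic and stromal list summed to 7544 to 10151 and 16225 to 34923, with Cxcl13 higher. In the VAT table the 11 macrophage markers summed to 774133 to 912254 in 24-month wild-type and to 662797 to 743083 in null libraries, without overlap, and 0 of 11 were called. Their part in the members' values was not tested.

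Spleen libraries also carried many neutrophil transcripts, whose 10 markers had sums of 661318 and 818515 in young wild-type and between 177613 and 367350 in old wild-type libraries. Only 5 of the 10 stood in the table of the VAT libraries. Ngp was at the lowest value in every 3-month wild-type VAT library, and Elane and Camp in every 24-month one. Where a marker passed the filter on low values only through spleen, its higher level there was fixed by the filter. No count between the tissues is therefore given for this list. T cell markers were higher in spleen at 24 months for 13 of 14 and lower for 1, and NK cell markers were higher for 9 of 10. Of these lists 13 of the 14 T cell markers and all 10 NK cell markers stood in the table of the VAT libraries. The B cell genes therefore stood beside other non-macrophage transcripts in spleen, and the share of each cell type in the libraries was not tested.

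**Figure D5:**
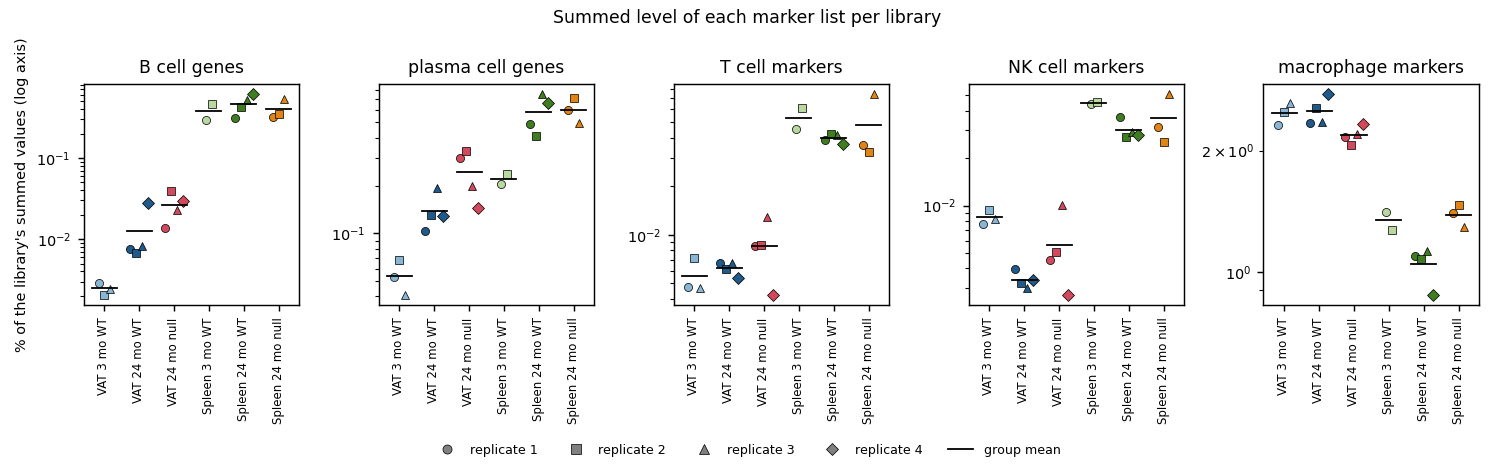
Summed normalised counts of 5 marker lists as a percentage of each library's summed values (log axes), by tissue, age and genotype. Points are libraries, marker shapes are replicate numbers and lines are arithmetic means. The B cell list has 9 genes, or 7 in null VAT, where Cr2 and Pax5 were not in the table. B cell genes make up 0.00207 to 0.0029% of 3-month VAT libraries and 0.297 to 0.464% of 3-month spleen libraries.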

How the data were processed

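Poly-A RNA of 20 sorted libraries was sequenced with strand-specific libraries, per the labels' protocols. The submitters' processing notes name CASAVA 1.8.2, TopHat, Partek, DESeq2 and mm10 without giving their roles. The values the authors deposited are a signal, namely gene counts normalised between libraries with values under 1 set to 1, in 3 tables (wild type, VAT, spleen) normalised separately. At least 99.777% of values per column up to 20000 reads were whole reads within 0.05 read after division by the column's step, the worth of 1 read, which was estimated in each column from the spacing of its low values. In 19 of 33 columns a read was worth under 1, so single reads cannot be told from 0 there. The members' reads of libraries held in 2 tables differed in 0 of 49 (VAT) and 0 of 54 (spleen) values. Recovered depth was 24.1 to 37.5 M reads, with a floor of 3 reads at 2.33 to 3.85 normalised counts. Tests were run within a table, with tissue by genotype on both tables joined.

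Genes with a table mean of at least 10 were tested with limma 3.58.1 (trend, R 4.3.3) on log2(value + 1), fitted over all groups of a table, two-sided, with Benjamini-Hochberg adjustment over all genes tested and a threshold of 0.05. Ratios were tested by exact permutation. edgeR 4.0.16 and DESeq2 1.42.0 on recovered reads, a pseudocount of 10, no filter, a replicate block, only the groups compared, a second table and leaving out each library were alternatives, and limma on TMM-rescaled reads was added after seeing the data. The scripts were tested on simulated data. Figures used matplotlib 3.10.9.

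The members and lists were chosen with earlier results of these data known. Named are all 9 members, the 8 genes most like them, and, of further lists, counts, up to 3 genes of highest mean and genes called, the last chosen after their values were seen. Exon lengths came from GENCODE M21. Immunoglobulin genes were not analysed here. One gene of the receptor complex list is not reported here, nor is that list's count of genes that rose.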

Additional observations from a re-analysis of the deposited data

Results flagged for a closer look

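In 24-month wild-type VAT, 5 members had 1 library far from the other 3 in replicate 4: Cd79a at 2719, Cd79b at 2868, Ms4a1 at 1434, Cd22 at 1636 and Pax5 at 3.80 normalised counts. Fcer2a at 47.4 and Cr2 at 13.7 stood apart in replicate 3 of the same group. A library was taken as apart where its gap to the nearest other library as a share of the group's range exceeded Dixon's 95% critical value. This held for 7 of the 25 groups of values checked. The rate of about 1 in 20 by chance holds for normally distributed values, whereas the rule was applied to counts without logs. For Pax5 and Cr2 the other libraries stood at or near the lowest value of the tables. The values of 1 library are also not independent of each other, so the count was not set against chance. The age calls of Cd79a and Ly6d were also made without replicate 4.

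The age effect differed between spleen and VAT for Cd79a (log2 -2.98, adjusted p = 0.0186) and Ly6d (-3.68, adjusted p = 0.00274) in limma's interaction test.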

How the results depend on the processing

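Of 1108 member fold changes recomputed under an alternative, 1057 kept their direction and side of the threshold, 10 lost a call, 8 gained one and 33 changed sign. The cause was not tested. Counts over all genes moved most. DESeq2 called 1153 genes for age in VAT (740 in limma), 1429 for age in spleen (850), 798 for tissue by age (375), 1209 for null against 3-month VAT (686), 29 for genotype in VAT (1), 16 for genotype in spleen (1) and 69 for tissue by genotype (0, edgeR 1). It called 1 member for genotype in VAT and 1 for tissue by genotype. With only the groups compared, age gave 1159 genes in VAT and 546 in spleen, and the VAT table gave 1225 for age.

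Leaving out single libraries gave 216 to 794 genes for age in VAT, 180 to 948 for age in spleen, 123 to 655 for tissue by age, 1 to 3 for genotype in VAT, 179 to 807 for null against 3-month VAT and 0 to 12 for tissue by genotype. Members called ran from 2 to 5 for age in VAT and from 1 to 3 for tissue by age. Signs turned in these fits for Cr2 (-1.38 to 0.47) with age in VAT, for Cd79a (-0.0409 to 0.57), Cd79b (-0.22 to 0.29), Fcer2a (-0.45 to 0.57) and Pax5 (-0.16 to 1.41) with age in spleen, for Cr2 in tissue by age (-0.93 to 0.92) and for Fcer2a in null against 3-month VAT (-0.14 to 1.13). For genotype in spleen they turned for Blk (-0.26 to 0.22), Cd79b (-0.37 to 0.0331), Cr2 (-0.27 to 0.0488), Ly6d (-0.0378 to 0.27) and Pax5 (-0.47 to 0.0514). A pseudocount of 10 turned Cr2 in tissue by age (-0.15), and the tissue difference of the Cd22 ratio was 0.30 with Cd79b as divisor.

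Replicate numbers are shared between groups. No comparison had all same-numbered pairs correlated above 0.1 (-0.146 to 0.24 for genotype in VAT, 0.0207 to 0.0471 for age in VAT). The best correlation was with the same number in 3 of 3 pairs for age in VAT and 2 of 3 for genotype in spleen. It was so in 2 of 4 for genotype in VAT and in 0 of 2 for tissue at 3 months. Whether same-numbered libraries shared more than a number was not tested. The replicate block gave 2 genes for genotype in VAT and 5 for genotype in spleen, called Ms4a1 in tissue by age (-2.07, adjusted p = 0.0378, limma), and turned Cd79a (-0.0752), Cd79b (-0.32), Ms4a1 (-0.29) and Fcer2a (-0.22) for age in spleen and Blk (0.22) and Cr2 (0.039) for genotype in spleen. Blk in young VAT, at 0 to 12 reads, is limited by depth, as are Cr2 and Pax5 in most VAT libraries.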

Other observations

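Cxcl13, the chemokine that draws CXCR5-bearing B cells, stood at 1540, 1979 and 1472 normalised counts in 3-month wild-type VAT and at 9309, 5739, 10229 and 15089 in 24-month wild-type VAT. The groups did not overlap, as for 12.2% of all genes tested in that direction. The log2 fold change was 2.53 (adjusted p = 0.00492, limma), and Cxcl13 was called without each of the 7 libraries in turn. In null VAT it stood at 12923, 18983, 6117 and 10228, overlapping the wild-type range of 5314 to 14241 in the VAT table. It was named after its values were seen.

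Pou2af1 and Tnfrsf13c separated the genotypes in 24-month VAT, with every null library above every wild-type one, although neither was called in limma. They were chosen after their values were seen, each from a list of 10 tested genes, and the other B cell lists were open to the same choice. How many list genes separated in this way is not given here, so the 2 are no support for the separation of Ly6d. Such a separation in that direction held for 1.73% of all 13090 genes tested. Pou2af1 stood at 430.05, 792, 524 and 1118 in null and at 56.6, 117, 359 and 362 in wild-type libraries. Tnfrsf13c, the BAFF receptor of mature B cells, stood at 331, 427, 248 and 624 in null and at 121, 64.3, 164 and 201 in wild-type libraries.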
